A study of Mus musculus with 6 samples.

Results

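Of the 18193 mouse genes that the array annotation named with a single symbol, 8 are described here as a cholesterol set: Hmgcs1, Idi1, Fdps, Fdft1, Sqle, Lss, Cyp51 and Insig1. They were chosen by name, and every probe set annotated to them was taken. The first 7 encode enzymes of cholesterol synthesis and Insig1 encodes a sensor that restrains it, so the set held no uptake receptor. The platform carried 21 probe sets for the 8 genes. All 8 genes had at least 1 probe set above the filter on dim signal, and 17 of the 21 probe sets were tested.

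RNA was measured on Affymetrix Mouse430_2 arrays in CD4-stained T cells taken from BALB/c hosts deficient in Rag1, which make no T or B cells of their own. All hosts had received wild-type natural regulatory T cells (nTreg) and 500000 wild-type regulatory T cells induced in culture (iTreg), and the treatment protocol describes injection into the peritoneal cavity of mice with colitis. At 125 days, spleen and mesenteric lymph node cells of 14 mice were sorted by an EGFP reporter for Foxp3, the transcription factor of regulatory T cells, and by Thy1.1, which marked the progeny of the transferred iTreg cells. The 3 groups of 2 arrays were nTreg (EGFP+ and Thy1.1-), iTreg (EGFP+ and Thy1.1+) and ex-iTreg (EGFP- and Thy1.1+), the last being former iTreg cells without the reporter. Each array was 1 replicate pool. Whether pools 1 and 2 of a group came from different mice is not stated, so p-values reflect pool-to-pool spread that could be purely technical. These were long-lived cells in hosts without other lymphocytes, and neither unmanipulated mice nor the naive conventional T cells of the study design were analysed here.

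Cholesterol is built from acetyl-CoA. The route passes through mevalonate, which is turned into isoprene units, these are joined to farnesyl pyrophosphate and squalene, and squalene is closed into lanosterol and trimmed to cholesterol. The transcription factor SREBP-2 raises the genes of nearly all of these steps when sterols in the endoplasmic reticulum fall, and INSIG proteins hold it back when sterols are plentiful. Activated and dividing T cells turn the pathway up, and its mevalonate branch also supplies the lipid anchors of small GTPases, which regulatory T cells need for their function.

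The values are deposited log2 expression values, so a difference of 1 is a doubling. Array medians lay between 5.47 and 5.49. The Foxp3 probe set read 3.99 to 4.29 in all 6 arrays, below the filter level of 5.48, so it could not check the sort. Of the 8 regulatory T cell markers listed, 7 were tested, and all 7 were lower in ex-iTreg than in iTreg and than in nTreg. Their mean log2 value was 11.98 in both nTreg pools, 11.61 and 11.59 in iTreg, and 9.15 and 9.27 in ex-iTreg. The mean of 9 tested T cell markers lay between 11.55 and 11.64 in all arrays, although 4 of the 9 were higher and 4 lower in ex-iTreg than in nTreg (2 and 2 without ex-iTreg pool 2, and 4 and 2 without ex-iTreg pool 1). Pools of a group correlated at 0.9968 to 0.9978 over all probe sets.

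Cholesterol synthesis was not shifted as a block. Sqle and Lss, which make and close the epoxide of squalene, were higher in both populations that descended from iTreg cells than in nTreg, by 1.70-fold and 1.41-fold in iTreg and by 1.62-fold and 1.43-fold in ex-iTreg. Fdft1, which makes squalene, was lower in ex-iTreg than in iTreg by 1.39-fold. Cyp51, which acts just after Lss, ran the other way, lower in iTreg than in nTreg and close to the nTreg level in ex-iTreg. At the probe sets that stand for the genes no member differed by 2-fold in any comparison, against 2.26%, 3.54% and 5.83% of all tested genes that passed the test and differed by at least 2-fold for iTreg against nTreg, ex-iTreg against iTreg and ex-iTreg against nTreg.

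**Figure D1:**
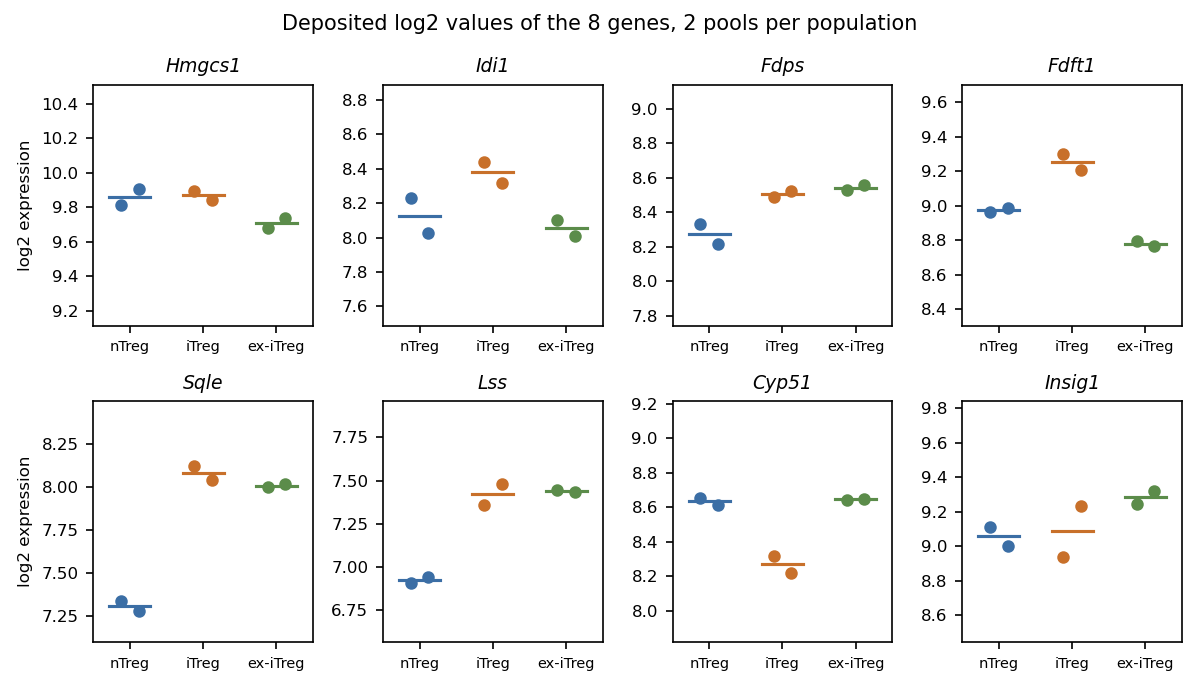
Log2 expression (vertical axes) of the 8 genes in each of the 6 pools, by group on the horizontal axes, at the probe set that stands for each gene; each panel spans the same number of log2 units, points are pools and bars are group means. Sqle reads 7.34 and 7.28 in nTreg and 7.996 or more in the other 4 pools, while Cyp51 is lowest in the iTreg pools at 8.32 and 8.22.

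Between iTreg and nTreg, 5 of the 8 genes passed limma's moderated test at an adjusted p of 0.05, 4 of them higher in iTreg (Sqle, Lss, Fdft1, Fdps) and 1 lower (Cyp51). The background was 29.1% of all tested genes, with 16.4% higher and 12.7% lower. The median difference was 0.24 over the 8 genes and 0.04 over all tested genes. The count fell when any 1 pool was left out. A pool of the group outside a comparison does not enter its differences. Leaving it out changes only the estimated spread, its degrees of freedom and so the adjusted p-values. A call lost that way, here or below, does not rest on the pool left out. Between ex-iTreg and iTreg, 3 of 8 passed, Cyp51 higher and Fdft1 and Idi1 lower, against a background of 36.6% (15.6% higher, 21.0% lower). The median was -0.03 over the 8 genes and -0.02 over all genes. Between ex-iTreg and nTreg, 3 of 8 passed, all higher in ex-iTreg (Sqle, Lss, Fdps), against 37.4% of all genes (18.4% higher, 19.0% lower). The median was 0.12 over the 8 genes and 0.025 over all genes. In the last 2 comparisons the share of members that passed was close to the background, so the counts say nothing particular about cholesterol genes. The 3 comparisons share their arrays and are not independent. With 2 pools against 2, an exact permutation test of a single gene could not go below a two-sided p of 0.333, so all adjusted p-values here come from the limma fit across all probe sets.

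Start regions were read for the 5 genes that the RefSeq promoter table held (GRCm38.p6): Hmgcs1, Idi1, Lss, Cyp51 and Insig1. Sqle, Fdps and Fdft1 had no entry. In the 300 bases from 250 before to 50 after each start, both strands were searched for the core of the sterol regulatory element to which SREBP binds (TCACNCCAC), for the CCAAT box (CCAAT), the GC box (GGGCGG) and an E-box (CACGTG). The SREBP core matched in 1 of the 5, Hmgcs1, and in 1.24% of 32851 promoters of the same length. CCAAT and GC boxes were present in 5 of 5, against 37.4% and 35.7% of all promoters, and the E-box in 1 of 5 (Insig1), against 7.15%. In these windows no motif overlapped another. Printed 5′ to 3′ on the strand of the gene, with every match in capitals (a match on the other strand reads ATTGG or CCGCCC), are the bases before the start of 3 genes: Hmgcs1 because it alone held the SREBP core (TCACCCCAC, at positions -137 to -129, where -1 is the base before the start), and Lss and Cyp51 because their levels moved in opposite directions between nTreg and iTreg.
Hmgcs1, chr13:119690101-119690350, plus strand: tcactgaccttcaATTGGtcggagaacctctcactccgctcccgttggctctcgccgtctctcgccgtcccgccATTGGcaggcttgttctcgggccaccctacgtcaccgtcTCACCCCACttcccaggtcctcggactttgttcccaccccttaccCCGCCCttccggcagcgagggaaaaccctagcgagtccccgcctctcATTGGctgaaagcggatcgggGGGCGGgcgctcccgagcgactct
Lss, chr10:76531355-76531564, plus strand: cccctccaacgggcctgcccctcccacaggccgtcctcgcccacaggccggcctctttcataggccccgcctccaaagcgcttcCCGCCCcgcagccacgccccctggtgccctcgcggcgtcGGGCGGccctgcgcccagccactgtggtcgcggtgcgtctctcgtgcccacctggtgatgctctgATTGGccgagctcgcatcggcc
Cyp51, chr5:4104698-4104947, minus strand: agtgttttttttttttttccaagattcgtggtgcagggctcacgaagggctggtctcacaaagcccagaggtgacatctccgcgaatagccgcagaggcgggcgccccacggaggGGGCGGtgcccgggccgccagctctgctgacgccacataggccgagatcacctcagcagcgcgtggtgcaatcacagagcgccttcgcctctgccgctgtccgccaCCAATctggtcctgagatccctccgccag
The Lss stretch stops where the annotated gene begins. Lss and Cyp51 both held CCAAT and GC boxes, while their expression moved in opposite directions. A match to these letters is a description and not a binding site. Only these exact letters were searched, so a start region without a match may still hold a binding site.

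**Figure D2:**
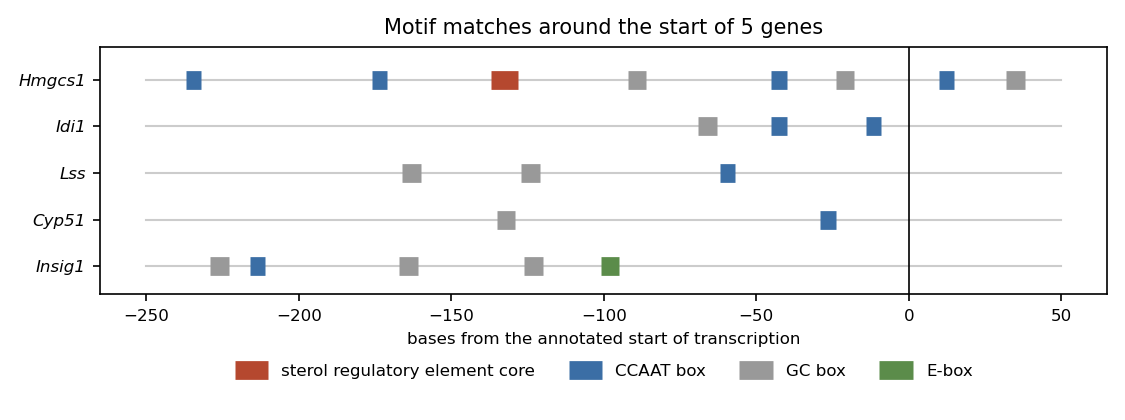
Positions of the 4 searched motifs (coloured marks) relative to the transcription start (horizontal axis, bases) in the start regions of the 5 genes with an entry (rows). The mark of the sterol regulatory element core appears only in Hmgcs1, and every row has CCAAT and GC box marks.

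Hmgcs1 encodes HMG-CoA synthase, the first committed enzyme before mevalonate. Its brightest probe set (1433445_x_at) read 9.81 and 9.90 in nTreg, 9.89 and 9.84 in iTreg, and 9.68 and 9.74 in ex-iTreg. The nTreg and iTreg pools overlapped, and the ex-iTreg pools were the lowest of the 6. The differences were 0.01 ± 0.07 (SE) for iTreg against nTreg, -0.16 ± 0.07 for ex-iTreg against iTreg and -0.15 ± 0.07 for ex-iTreg against nTreg, with limma adjusted p-values of 0.923, 0.112 and 0.133, none past the threshold. Other probe sets of the gene did not all give this picture. Probe set 1433443_a_at read 9.33 and 9.25 in nTreg, 9.53 and 9.54 in iTreg, and 9.32 and 9.21 in ex-iTreg, with both iTreg pools above the other 4. There iTreg was 0.24 above nTreg (limma adjusted p = 0.0458) and ex-iTreg 0.27 below iTreg (difference -0.27, adjusted p = 0.0257). Probe sets 1433444_at and 1433446_at passed in no comparison, and 1441536_at was too dim to be tested (4.78 to 5.35).

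Idi1 encodes the isomerase that interconverts the isoprene units. It read 8.23 and 8.03 in nTreg, 8.44 and 8.32 in iTreg, and 8.10 and 8.01 in ex-iTreg, so both iTreg pools lay above the other 4. The drop of 0.32 ± 0.09 from iTreg to ex-iTreg (difference -0.32) passed with a limma adjusted p of 0.0345, and the differences of 0.25 (adjusted p = 0.0865) for iTreg against nTreg and -0.07 for ex-iTreg against nTreg did not. The call was lost without either iTreg pool (adjusted p = 0.154 without pool 1 and 0.0654 without pool 2) and without either ex-iTreg pool (0.0863 and 0.165). The second probe set (1423804_a_at) gave -0.24, with an adjusted p of 0.139.

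Fdps encodes farnesyl pyrophosphate synthase, whose product is the branch point to sterols, to prenyl anchors and to other isoprenoids. It read 8.33 and 8.22 in nTreg, 8.49 and 8.52 in iTreg, and 8.53 and 8.56 in ex-iTreg. Both nTreg pools were the lowest, and the other 4 lay within a narrow range. iTreg was 0.23 ± 0.07 above nTreg (limma adjusted p = 0.0491) and ex-iTreg 0.27 ± 0.07 above nTreg (adjusted p = 0.0244), and the 2 descendants of iTreg differed by 0.04 ± 0.07. Both calls were fragile. With 1 pool left out, the first held only without nTreg pool 1, and the second was lost without nTreg pool 2 or either ex-iTreg pool. The first difference ranged from 0.17 to 0.29 and the second from 0.21 to 0.33. Without either ex-iTreg pool the first difference stayed at 0.23. Its other probe set, 1438150_at, read 2.91 to 3.29 and was not tested.

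Fdft1 encodes squalene synthase, the first enzyme committed to sterols. Its brightest probe set (1438322_x_at) read 8.96 and 8.99 in nTreg, 9.30 and 9.21 in iTreg, and 8.79 and 8.77 in ex-iTreg. The 3 groups did not overlap, with iTreg highest and ex-iTreg lowest. From iTreg to ex-iTreg it fell by 0.47 ± 0.07 on the log2 scale (limma adjusted p = 0.0026), and with each of the 6 pools left out in turn the adjusted p stayed at 0.0249 or below. A second probe set, 1448130_at, read 8.31 and 8.30, 8.71 and 8.57, and 8.06 and 8.16 in the same order of groups, and fell by 0.52 ± 0.08 (adjusted p = 0.00333). The higher level in iTreg than in nTreg, 0.28 ± 0.07 (adjusted p = 0.023), lost its call when any 1 of the 6 pools was left out. The difference ranged from 0.23 to 0.32 in these fits and stayed at 0.28 without either ex-iTreg pool. Probe sets 1438918_at and 1438919_x_at passed in no comparison, so the 4 probe sets of Fdft1 split evenly.

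Sqle encodes squalene epoxidase, which adds the oxygen that starts ring closure and is a rate-limiting step of the pathway. Its only probe set read 7.34 and 7.28 in nTreg, 8.12 and 8.04 in iTreg, and 7.996 and 8.02 in ex-iTreg. The nTreg pools stood apart below the other 4, which lay close together. iTreg was 0.77 ± 0.07 above nTreg (limma adjusted p = 0.000728), the largest difference among the 8 genes at the probe sets that stand for them, and ex-iTreg was 0.70 ± 0.07 above nTreg (adjusted p = 0.000465). The change from iTreg to ex-iTreg was -0.07 ± 0.07 (adjusted p = 0.443). Both calls held with each pool left out, at adjusted p-values of 0.00729 and 0.00671 or below.

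Lss encodes lanosterol synthase, which folds the epoxide into the first sterol. Probe set 1420013_s_at read 6.91 and 6.94 in nTreg, 7.36 and 7.48 in iTreg, and 7.44 and 7.43 in ex-iTreg. The pattern was that of Sqle, with nTreg alone below. The differences from nTreg were 0.50 ± 0.07 in iTreg (limma adjusted p = 0.00396) and 0.52 ± 0.07 in ex-iTreg (adjusted p = 0.00203), and that between iTreg and ex-iTreg was 0.02 ± 0.07. Both calls held with each pool left out, at adjusted p-values of 0.0276 and 0.0195 or below. The dimmer probe set 1426913_at read 4.87 and 4.59 in nTreg, under the filter level, and 5.59 to 5.80 in the other 4 pools. It was tested only because of the pools in which it is high, so its size of difference and test are not given as support. The third probe set of the gene was too dim to be tested.

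Cyp51 encodes the lanosterol demethylase, the first of the steps that trim lanosterol. Probe set 1450646_at read 8.65 and 8.62 in nTreg, 8.32 and 8.22 in iTreg, and 8.65 in both ex-iTreg pools. Only iTreg was low, and nTreg and ex-iTreg differed by 0.01 ± 0.07. iTreg was 0.37 ± 0.07 below nTreg (difference -0.37, limma adjusted p = 0.00981), a call lost without iTreg pool 2 (0.06), and ex-iTreg was 0.38 ± 0.07 above iTreg (0.00611), a call kept with each pool left out. The second tested probe set, 1422533_at, read 8.03 and 8.08, 7.99 and 7.82, and 8.18 and 8.16 in nTreg, iTreg and ex-iTreg. It gave -0.15 for iTreg against nTreg (adjusted p = 0.191), not past the threshold, and 0.27 for ex-iTreg against iTreg (adjusted p = 0.0366). The rise from iTreg to ex-iTreg was thus seen at both probe sets, and the lower level in iTreg than in nTreg passed at the brighter one only. Probe set 1422534_at was not tested.

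Insig1 encodes the endoplasmic reticulum protein that retains the SREBP escort and is itself a target of SREBP. Its only probe set read 9.11 and 8.999 in nTreg, 8.94 and 9.23 in iTreg, and 9.25 and 9.32 in ex-iTreg. The iTreg pools were farther apart than any other pair of this gene and spanned the nTreg values. The differences of 0.03 ± 0.11, 0.20 ± 0.11 (ex-iTreg against iTreg) and 0.23 ± 0.11 (ex-iTreg against nTreg) had limma adjusted p-values of 0.859, 0.208 and 0.156.

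**Figure D3:**
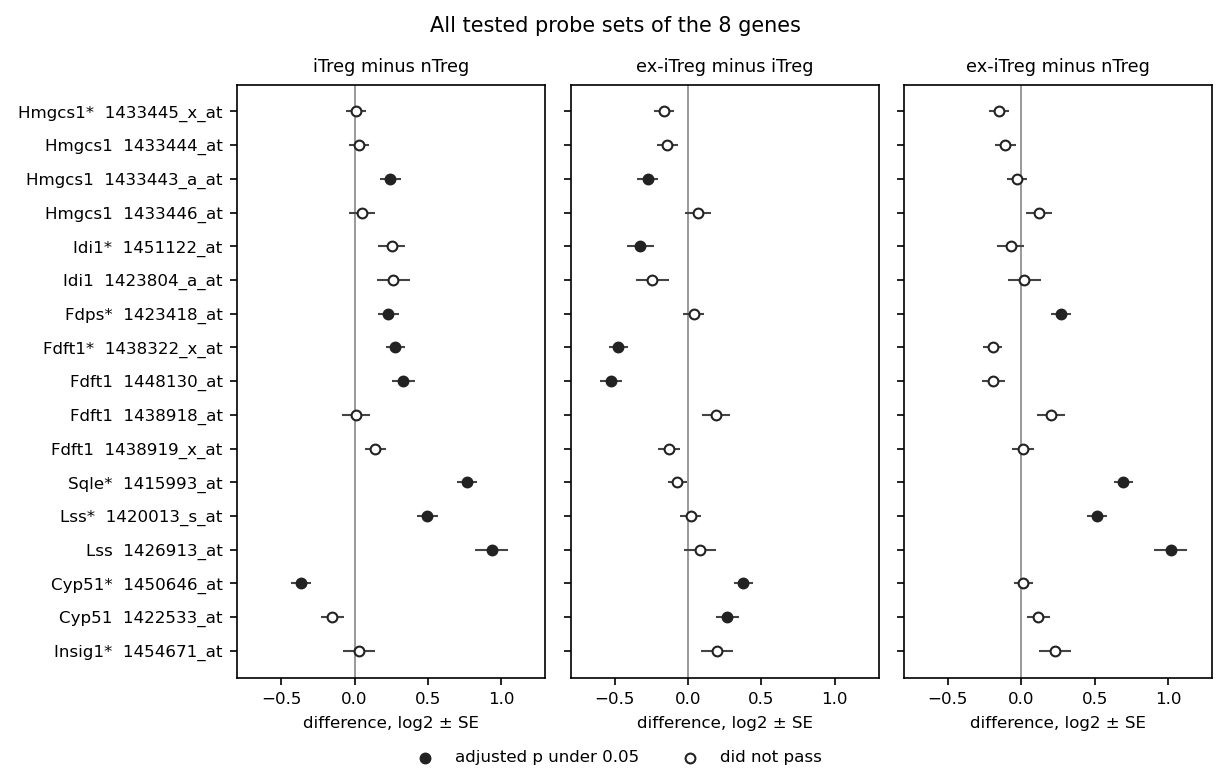
Differences between groups (log2, horizontal axis, with standard errors) at each of the 17 tested probe sets of the 8 genes (rows; a star marks the probe set that stands for the gene), 1 panel per comparison. The starred Lss probe set lies at 0.50 and 0.52 against nTreg (the other Lss probe set, also to the right of 0, was under the filter level in nTreg), and 2 of the 4 Fdft1 probe sets lie at -0.47 and -0.52 for ex-iTreg against iTreg while 1438918_at lies at 0.19.

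Counted by probe set rather than by gene, 8 of the 17 tested probe sets passed for iTreg against nTreg, 6 for ex-iTreg against iTreg and 4 for ex-iTreg against nTreg. The backgrounds over all tested probe sets were 29.1%, 37.0% and 36.4%. The dim Lss probe set is among the 8 and the 4. Probe sets of 1 gene share its RNA and are not separate replicates. The 8 genes lie on 6 chromosomes, with Hmgcs1 and Idi1 both on chromosome 13 and Cyp51 and Insig1 both on chromosome 5.

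The rest of the synthesis pathway held both higher and lower genes that passed in each comparison, in unequal numbers. For the rest of the pathway and the lists that follow, the background is the share of all tested genes that passed. It was 29.1%, 36.6% and 37.4% for iTreg against nTreg, ex-iTreg against iTreg and ex-iTreg against nTreg. Of 14 other enzymes listed, 11 were tested. For iTreg against nTreg, 5 were higher (Mvd, Msmo1, Mvk, Dhcr7 and Tm7sf2) and 1 was lower (Sc5d), with a median of 0.20. Mvd, which makes the first isoprene unit, was higher by 0.63 ± 0.08 (limma adjusted p = 0.00304), and Sc5d, the desaturase late in the trimming of the sterol, was lower (difference -0.67 ± 0.07, adjusted p = 0.00137). Both held with each pool left out, but the number of higher enzymes dropped to 2 when either iTreg pool or nTreg pool 2 was left out, and to 3 without either ex-iTreg pool. The lower Sc5d level in iTreg passed at 1 of its 3 probe sets, the others giving -0.34 and -0.22 (adjusted p = 0.297 and 0.249).

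For ex-iTreg against iTreg, 4 of the 11 were lower (Ebp, Dhcr7, Mvd, Pmvk) and Sc5d was higher, with a median of -0.07. Dhcr7, the last reductase of the pathway, fell by 0.71 ± 0.10 (limma adjusted p = 0.00289), and Ebp, the sterol isomerase, fell by 0.62 ± 0.07 (adjusted p = 0.00127). Sc5d was 0.50 ± 0.07 higher in ex-iTreg (adjusted p = 0.00266), so that at this probe set, as for Cyp51, iTreg was lowest. The other Sc5d probe sets gave -0.12 and 0.18 for ex-iTreg against iTreg, neither past the threshold. For ex-iTreg against nTreg, 3 were higher (Msmo1, Tm7sf2, Mvk) and Ebp was lower, with a median of 0.01. The share of enzymes that passed there was close to the background of 37.4%. Msmo1, the methyl oxidase that acts after Cyp51, was higher by 0.59 ± 0.08 (adjusted p = 0.00163). The 3 higher enzymes became 1 without either ex-iTreg pool and 2 without any other pool.

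Of 11 genes that control SREBP, 9 were tested. Srebf2, which encodes SREBP-2, was the only one to pass for iTreg against nTreg, higher by 0.40 ± 0.07 (limma adjusted p = 0.0107, lost without iTreg pool 2 at 0.0609), and the only one to pass for ex-iTreg against iTreg, lower (difference -0.25, adjusted p = 0.0437, lost without 4 of the 6 pools). Its other probe set gave 0.35 (adjusted p = 0.0221) and -0.52 (adjusted p = 0.00404). Srebf1, which encodes the SREBP forms that mainly drive fatty acid genes, gave -0.05, 0.04 and -0.01 in the 3 comparisons, with adjusted p-values of 0.570, 0.671 and 0.880. None of the 9 passed in limma for ex-iTreg against nTreg, where 2 had an unadjusted p below 0.05 and the differences ran from -0.24 to 0.17.

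Uptake and intracellular transport were read through 8 tested genes of 12. For iTreg against nTreg, 5 were higher and 1, Stard4, was lower (a call kept only when nTreg pool 2 was the pool left out), with a median of 0.36. The other Stard4 probe sets gave -0.50 (limma adjusted p = 0.00616) and -0.23 (limma adjusted p = 0.2). Scarb1, the HDL receptor, was higher by 0.78 ± 0.09 (limma adjusted p = 0.00237) at its brightest probe set. That probe set read 5.89 and 5.63 in nTreg, near the filter level of 5.48. Another Scarb1 probe set gave 0.33 (adjusted p = 0.11), not past the threshold. The remaining one was also higher in iTreg, but it read 5.09 and 5.08 in nTreg, under the filter level. Npc2, which carries cholesterol out of lysosomes, was higher by 0.41 ± 0.07 (adjusted p = 0.00668). Lipa, the lysosomal acid lipase, was higher by 0.50 ± 0.09 (adjusted p = 0.0083, lost without iTreg pool 2 at 0.0518). The 5 higher genes became 3 without iTreg pool 1 and 2 without iTreg pool 2. From iTreg to ex-iTreg 5 of the 8 fell and 0 rose, with a median of -0.33. Lipa had a difference of -0.63 ± 0.09 (adjusted p = 0.00239) and Stard3, a cholesterol transfer protein of endosomes, one of -0.48 ± 0.08 (adjusted p = 0.00599). The 5 became 3 without either iTreg pool or either ex-iTreg pool. Against nTreg, 3 were higher in ex-iTreg and 1 lower, with Lrp8, an apolipoprotein E receptor, higher by 0.68 ± 0.09 (adjusted p = 0.00232); the 3 became 1 without either ex-iTreg pool, 2 without nTreg pool 2, and stayed 3 without the other 3 pools.

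Among 5 tested efflux genes and targets of the oxysterol receptor LXR, Abca1, the cholesterol exporter, was lower in ex-iTreg than in iTreg (difference -0.74 ± 0.06, limma adjusted p = 0.00048) and than in nTreg (-0.95 ± 0.06, adjusted p = 0.000117). Abcg1, a second exporter, was also lower in ex-iTreg than in iTreg (-0.46 ± 0.07, adjusted p = 0.00318). Apoe, the apolipoprotein that macrophages secrete in quantity, was higher in iTreg than in nTreg by 1.08 ± 0.10 (adjusted p = 0.00087). In all, 2 of 5 were higher for iTreg against nTreg and 0 lower, 3 were lower and 0 higher for ex-iTreg against iTreg, and 2 were higher and 2 lower for ex-iTreg against nTreg. The 2 higher in iTreg became 1 without iTreg pool 2. Against nTreg, the 2 higher in ex-iTreg became 1 without nTreg pool 2 or either ex-iTreg pool, and the 2 lower became 1 without ex-iTreg pool 2. Of the ester and oxysterol genes only 2 of 6 were tested, and 1, the ester hydrolase Nceh1, passed in a single comparison, lower in ex-iTreg than in iTreg (-0.38 ± 0.09, adjusted p = 0.0165). That call was lost without iTreg pool 1 (0.0664), iTreg pool 2 (0.0727) or ex-iTreg pool 1 (0.0945).

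The other branches from farnesyl pyrophosphate were tested in 10 of 11 genes. For iTreg against nTreg 2 were higher and 0 lower, for ex-iTreg against iTreg 3 were higher and 1 lower, and for ex-iTreg against nTreg 3 were higher and 0 lower. The 2 became 1 without nTreg pool 1 or either iTreg pool, and without iTreg pool 1 there was also 1 lower. The first 3 became 1 without iTreg pool 2 or ex-iTreg pool 1, and the second 3 became 1 without ex-iTreg pool 1. The shares that passed were near or below the backgrounds of 29.1%, 36.6% and 37.4%. These counts therefore say nothing particular about the genes of these branches. Rabggtb, a subunit of the enzyme that anchors Rab proteins, was 0.53 ± 0.06 higher in ex-iTreg than in iTreg (limma adjusted p = 0.0016). Dhdds, which makes the dolichol chain, was higher in iTreg than in nTreg by 0.42 ± 0.07 (adjusted p = 0.00907) and lower again in ex-iTreg than in iTreg (difference -0.43 ± 0.07, adjusted p = 0.0057). In fatty acid synthesis 9 of 12 genes were tested, with 4 higher and 0 lower for iTreg against nTreg, 2 higher and 4 lower for ex-iTreg against iTreg, and 2 higher and 1 lower for ex-iTreg against nTreg. Acss2, which makes acetyl-CoA from acetate, was higher than in nTreg, as were Sqle and Lss. The differences were 0.62 ± 0.08 in iTreg (adjusted p = 0.00347) and 0.98 ± 0.08 in ex-iTreg (adjusted p = 0.000307). Without 1 pool, the 4 higher in iTreg became 2 at the fewest (without iTreg pool 2), and the 4 lower in ex-iTreg became 1 (without ex-iTreg pool 2) or 2 (without either iTreg pool or ex-iTreg pool 1). The 2 higher in ex-iTreg than in iTreg became 0 without iTreg pool 2 or ex-iTreg pool 2, and 1 without iTreg pool 1 or ex-iTreg pool 1.

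**Figure D4:**
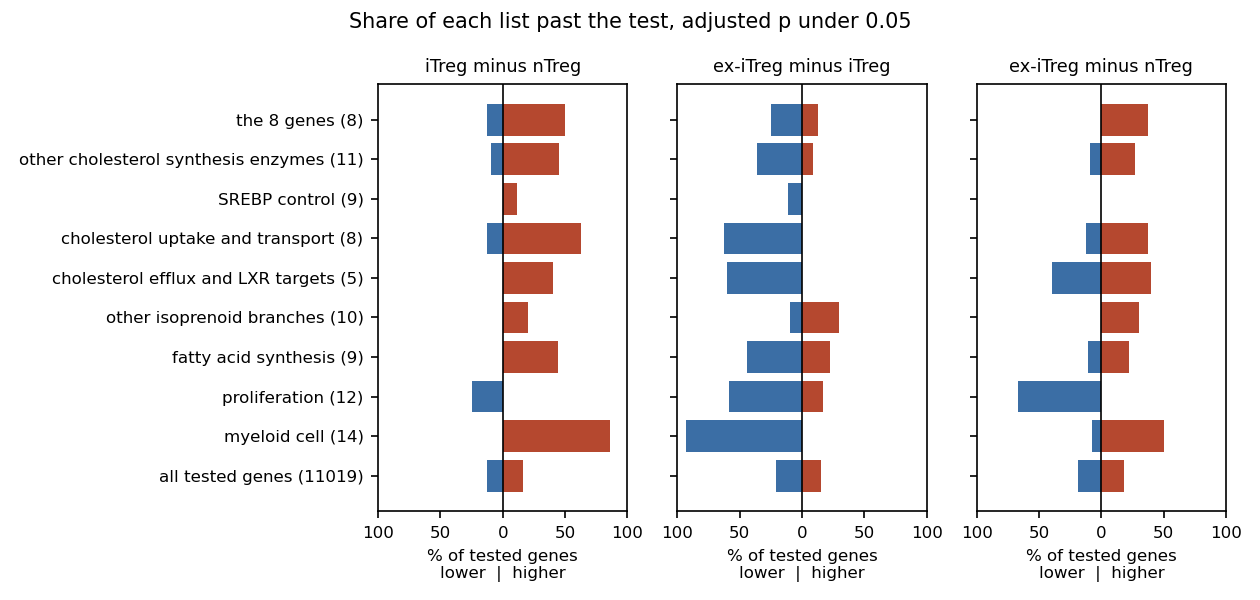
Share of the tested genes of each list (percent, horizontal axis) that passed higher or lower, 1 panel per comparison, with the share over all tested genes beside them. The uptake and transport list has 5 of 8 genes higher for iTreg against nTreg and 5 of 8 lower for ex-iTreg against iTreg.

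Markers of other cells moved with the same groups. Of 15 myeloid markers 14 were tested, and 12 were higher and 0 lower in iTreg than in nTreg, with a median of 1.20, while 13 were lower in ex-iTreg than in iTreg, with a median of -0.82. The log2 of their summed linear values was 11.78 to 11.84 in nTreg, 12.65 to 12.68 in iTreg and 11.92 to 11.94 in ex-iTreg. Csf1r, the macrophage growth factor receptor, was higher in iTreg than in nTreg by 1.22 ± 0.06 (limma adjusted p = 0.00014), whereas Itgam was below the filter in all arrays. Apoe, Lipa, Npc2, Abca1, Scarb1 and several synthesis genes are also expressed by macrophages, and the part of such cells in the iTreg values was not tested. In bulk RNA fewer cells of a type and less RNA per cell cannot be told apart. In ex-iTreg the summed myeloid level was close to that of nTreg, but the median difference of the 14 markers from nTreg was 0.49. Of the 14, 7 were higher there than in nTreg (4 without ex-iTreg pool 2) and 1 was lower. The part of such cells in the Sqle, Lss and Fdps values was not tested. Of 8 erythroid markers only 3 were tested. These 3 were higher in iTreg than in nTreg and lower in ex-iTreg than in iTreg. Their summed log2 levels were 8.77 to 8.83, 9.42 to 9.45 and 8.64 to 8.84 in nTreg, iTreg and ex-iTreg. In both comparisons not every erythroid call held with each pool left out. Of 9 B cell markers 5 were tested, with 1 higher and 2 lower in iTreg than in nTreg, and 4 lower and 0 higher in ex-iTreg than in iTreg. The log2 of their summed linear values was 12.54 to 12.55 in nTreg, 12.54 to 12.56 in iTreg and 11.66 to 11.68 in ex-iTreg. The markers did not move together: Cd79b, a part of the B cell receptor, averaged 7.66, 6.47 and 4.65 in nTreg, iTreg and ex-iTreg, and Jchain, the joining chain of secreted antibodies, 9.83, 10.30 and 9.92. The part of B cells in the results was not tested.

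Proliferation genes, whose products serve DNA copying and division, were lower in part in both populations than in nTreg. Of 16 listed 12 were tested. For iTreg against nTreg 0 were higher and 3 lower, for ex-iTreg against iTreg 2 were higher and 7 lower (1 higher without either iTreg pool or either ex-iTreg pool), and for ex-iTreg against nTreg 0 were higher and 8 lower, with a median of -0.53. Mki67, the gene of the Ki-67 antigen, averaged 9.60 in nTreg, 9.05 in iTreg and 8.67 in ex-iTreg. A link between proliferation and the cholesterol genes was not tested.

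The mean of the 8 genes, each centred on its own mean, was -0.10 and -0.15 in the nTreg pools, 0.09 in both iTreg pools, and 0.03 and 0.04 in the ex-iTreg pools. Among tested genes outside the lists whose group means spanned at least 0.5, the 8 whose 6 values correlated most with this mean were Xaf1, Cpne4, Als2cl, Mthfd2, Oas2, Il6ra, Lars2 and Ifit3. Pearson's r ran from 0.9917 (Ifit3) to 0.9994 (Xaf1) over the 6 arrays, which fall in 3 pairs, and it is given as a description. Xaf1, Oas2 and Ifit3 are interferon-induced genes, and Mthfd2 and Lars2 encode mitochondrial enzymes. Their group means were all lowest in nTreg and highest in iTreg, as for Xaf1 at 8.72, 9.99 and 9.68 in nTreg, iTreg and ex-iTreg.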

How the data were processed

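The authors deposited log2 expression values, for which the submitters' processing notes name RMA. Its version and a genome build are not given in the sources read. Sample groups came from the labels. The 8 genes and all gene lists were chosen with earlier results of these data known.

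Of 45101 probe sets, 64 controls were left out, and 23484 whose value exceeded the overall median (5.48) on 2 or more of the 6 arrays were tested. limma 3.58.1 (R 4.3.3) was fitted over all 6 arrays with 1 mean per group (lmFit and eBayes; 3 residual and 3.37 prior degrees of freedom), with Benjamini-Hochberg adjustment across every tested probe set and 0.05 as the threshold. The method was tested on simulated data. Errors after ± are standard errors of the fit. A gene was represented by its tested probe set with the highest mean, which gave 11019 genes. Platform annotation gave 1 symbol for 34945 probe sets, several for 932 and none for 9160; probe sets with several symbols named no gene. All 8 genes were matched by Entrez identifier to RefSeq. Named genes were the 8, up to 4 per other list and comparison by absolute moderated t among those past the threshold, Srebf1 and Srebf2 always, and the 8 genes of most similar profile; Pmvk, Dhcr7, Tm7sf2, Stard4 and Itgam were in places named outside this rule to complete counts after their values were seen. The number of arrays, 6, limits the precision, and RMA values near background understate fold differences. Alternatives changed the filter, normalization, variance prior, arrays, probe set, call rule and pool block.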

Additional observations from a re-analysis of the deposited data

How the results depend on the processing

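Sqle and Lss against nTreg, and Cyp51 between iTreg and ex-iTreg, kept their direction and call under every alternative run except the 2-fold rule. Fdft1 between iTreg and ex-iTreg did so too, but the median of its probe sets was no separate check. That median lay equally near 1438322_x_at, which passed, and 1438919_x_at, which did not (-0.13, limma adjusted p = 0.216). The median of probe sets was no separate check for Sqle either, which has 1 probe set. Nor was it one for Lss, whose other tested probe set was under the filter level in nTreg. The 2-fold rule left 0 of the 8 genes in each comparison. It left 603, 859 and 1283 probe sets for iTreg against nTreg, ex-iTreg against iTreg and ex-iTreg against nTreg. For iTreg against nTreg, 3 of the 8 genes passed with only the arrays of both groups and 3 with no filter on dim signal, Fdps and Fdft1 being lost in each. For ex-iTreg against nTreg, 6 passed with a mean-variance trend, which added Hmgcs1, Fdft1 and Insig1; the cause was not tested. Without 1 pool, the members that passed ranged from 2 to 4, 2 to 3 and 2 to 3 in the 3 comparisons, and the probe sets from 3420 to 5380, 4971 to 9104 and 5243 to 7928. Where genes were represented by the median of their probe sets, the median itself was not tested. The limma adjusted p was that of the probe set nearest to it. Cyp51 for iTreg against nTreg (median -0.26) and Idi1 for ex-iTreg against iTreg (median -0.28) have 2 tested probe sets each, equally near. The values taken, 0.191 and 0.139, belong to 1422533_at and 1423804_a_at, while the brighter probe sets passed (0.00981 and 0.0345). This alternative therefore cannot decide these 2 calls.

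Signs turned only for differences that had not passed, each when 1 pool was left out. The ranges were -0.035 to 0.056 for Hmgcs1 and -0.12 to 0.18 for Insig1 (iTreg against nTreg), -0.043 to 0.081 for Lss (ex-iTreg against iTreg), and -0.17 to 0.028 for Idi1 and -0.0042 to 0.031 for Cyp51 (ex-iTreg against nTreg). Genes outside the 8 were recomputed only in comparisons in which they had passed, a restriction made after a first run over all listed genes had given many sign changes, nearly all in differences that had not passed.

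The pool numbers were shared by the groups, but the labels do not say that they mark shared mice. Differences between pool 1 and pool 2 correlated at -0.0069, -0.088 and -0.04 between pairs of groups. With the replicate block, 4, 3 and 3 of the 8 genes and 5853, 8011 and 7814 probe sets passed, and Fdps for iTreg against nTreg was the member that lost its call (adjusted p = 0.0808).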
